A study of Mus musculus with 24 samples.

Results

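Slpi, Lcn2, Saa3, Saa1, Cxcl1, Cxcl2, Cxcl3, Cxcl5 and Cxcr2, 9 of the 54087 gene symbols in the read count table, were followed across the skin of WT, HET and KO mouse embryos. They were taken as antimicrobial, acute phase and neutrophil-recruiting genes, and they were chosen by their counts in KO against WT and HET skin in these same samples, so their differences between genotypes are given below as a description and not as a test. RNA-Seq had been done on dorsal skin of C57BL/6 embryos at E18.5, shortly before birth. WT embryos carried both copies of the tandem Dsg1a, Dsg1b and Dsg1c genes, HET embryos lacked them on one chromosome and KO embryos on both. These genes encode desmoglein 1, a cadherin that joins the upper keratinocytes of the epidermis. The deletion was made by CRISPR/Cas9 in zygotes and came from 1 founder, and it is present in every cell from the start, so the genotypes differ in all cells of the skin and body. KO pups die soon after birth with peeling skin. RNA with poly(A) tails was sequenced from whole frozen skin, so all its cell types are mixed.

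The proteins belong to one branch of innate immunity. Slpi (secretory leukocyte protease inhibitor) blocks neutrophil elastase, and Lcn2 (lipocalin 2) starves bacteria of iron by binding their siderophores. Saa3 and Saa1 are serum amyloid A proteins, which rise in the acute phase response, Saa1 mainly from the liver and Saa3 mainly from tissues outside it. Cxcl1, Cxcl2, Cxcl3 and Cxcl5 are chemokines that bind the receptor Cxcr2 on neutrophils and draw these cells into tissue. In skin, keratinocytes can make Slpi, Lcn2 and the chemokines in response to IL-17 and to signals that act through NF-kappaB, whereas Cxcr2 is best known as a gene of mature neutrophils.

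The promoters are shown because the chemokine genes sit together on chromosome 5 and 3 of them share an NF-kappaB type motif near their start. Sequences were taken from RefSeq on build GRCm38.p6, where 8 of the 9 genes had an entry of 300 bases, 250 before and 50 after the start. The stretches below are the 120 bases before the start of Cxcl1 (chr5:90891125-90891244), Cxcl2 (chr5:90903779-90903898) and Cxcl3 (chr5:90785981-90786100), all on the plus strand, and capitals mark GGAATTTCC.
Cxcl1: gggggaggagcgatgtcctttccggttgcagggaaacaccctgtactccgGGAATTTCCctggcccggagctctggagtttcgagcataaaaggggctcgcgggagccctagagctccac
Cxcl2: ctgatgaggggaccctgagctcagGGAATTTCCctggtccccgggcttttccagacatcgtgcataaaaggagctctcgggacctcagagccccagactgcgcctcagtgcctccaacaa
Cxcl3: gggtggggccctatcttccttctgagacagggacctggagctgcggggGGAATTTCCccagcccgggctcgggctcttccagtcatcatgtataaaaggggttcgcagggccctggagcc
The motif began 70 bases before the start in Cxcl1, 96 in Cxcl2 and 72 in Cxcl3. Read on both strands, it was present in 104 of 32817 promoters of the same length, which is 0.317%, and in none of the other 5 members with an entry.

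The antimicrobial and acute phase members held another motif, TTNNGCAA, known from C/EBP factors, which act on acute phase genes. The stretches below are 60 bases on the minus strand around the motif, which is in capitals, from Slpi (chr2:164356698-164356757), Lcn2 (chr2:32387922-32387981), Saa3 (chr7:46715742-46715801) and Saa1 (chr7:46743129-46743188).
Slpi: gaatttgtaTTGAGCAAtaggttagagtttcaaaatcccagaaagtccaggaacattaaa
Lcn2: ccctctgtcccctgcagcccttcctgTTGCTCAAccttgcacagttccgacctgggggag
Saa3: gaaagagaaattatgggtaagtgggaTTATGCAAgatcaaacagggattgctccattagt
Saa1: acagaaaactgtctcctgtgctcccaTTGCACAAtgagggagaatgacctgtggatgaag
The letters of Lcn2 and Saa1 match on the opposite strand. This motif was in 10.8% of all promoters and in none of the 4 chemokine and receptor genes with an entry. The AP-1 motif TGANTCA was in 7.81% of promoters and in none of the 8 members with an entry. These are matches of letters and say nothing of binding in this skin.

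The table held 24 libraries, 8 per genotype, in 2 title series of 9 and 15 libraries. Libraries that shared a title number and genotype were summed, which gave 15 columns, 5 per genotype, with 15.3 M to 33.7 M counts each. All 9 libraries of series 1 shared their number and genotype with a library of series 2. Values given within each series are therefore not independent of each other. Levels are CPM, the count per 1 M counts of the TMM-adjusted column total. Values within a title series, and those of the separate libraries of a summed column, are CPM of the raw total instead. The deleted genes followed the labels. Dsg1a, Dsg1b and Dsg1c summed to 806 ± 112 CPM in WT, 422 ± 51.5 in HET and 0.548 ± 0.343 in KO (mean ± SD, n = 5 each, as throughout), so HET skin held 52.3% of the WT level (two-sided exact permutation test on log2 values with 1 CPM added, p = 0.00794 for KO and for HET against WT, the smallest that 252 arrangements allow).

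A pair of columns stood apart, and values without them are given beside the results that they move most. KO replicate 4, a single library of 20.96 M counts, had 78 of 20318 genes with 40 or more counts (0.384%) at 3 times or more the next highest column, whereas the other 14 columns had 0 to 9 such genes. The members Saa3, Cxcl1, Cxcl2, Cxcl3 and Cxcl5 were 5 of the 78. Genes that were chosen after their values were seen stood beside them: mesothelin (Msln) was at 72.1 CPM in KO replicate 4 and at most 4.48 elsewhere, Krt18 at 93.5 and at most 2.67, and Muc16 at 24.7 and at most 2.01. Msln and Muc16 are known from mesothelium, the lining of the body cavities, and Krt18 is a keratin of simple epithelia, mesothelium among them. In WT replicate 2, the 2 summed libraries were not alike. Their Y-linked genes summed to 338 CPM in one and 0.157 in the other, with Xist at 0.275 and 574. The libraries differed by a chi-square of 15.6 per degree of freedom, against 1.59 to 1.86 for the other 8 pairs. These are the patterns of a male and a female library, so this column, summed as labelled, does not stand for 1 embryo. The labels do not say that columns are separate embryos, so every p-value measures the spread between these columns only.

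For Slpi, all 5 KO columns lay above all 5 WT and all 5 HET columns, and KO replicate 4 was 1.56 times the next column, the lowest such ratio of the 9 genes. Over the table, 1.61% of the 17094 genes tested were higher in every KO than in every WT column, and 0.954% in every KO than in every HET column. As Slpi was picked for its level in KO, nothing is read from this. Its counts were low. In WT they were 0, 3, 6, 9 and 2, which gave 0, 0.0869, 0.190, 0.328 and 0.101 CPM. In HET they were 5, 3, 9, 2 and 7, or 0.163, 0.112, 0.331, 0.130 and 0.335 CPM. In KO they were 57, 42, 13, 52 and 12, or 1.71, 1.55, 0.553, 2.67 and 0.571 CPM. Replicates 1, 2 and 4 formed a higher set in KO and replicates 3 and 5 a lower one, and even the lowest KO value was above the highest WT and HET values. The WT and HET columns overlapped.

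The mean Slpi level was 0.141 ± 0.124 CPM in WT, 0.214 ± 0.110 in HET and 1.41 ± 0.886 in KO, so KO was 10.02 times WT and 6.59 times HET. Without KO replicate 4 the KO mean was 1.10 ± 0.621 CPM (n = 4), 7.78 times WT, so the difference stayed large when that column was taken out. KO replicate 4 held 23.4% of all Slpi counts, less than KO replicate 1. In the 9 numbers with 2 libraries, the split of counts differed from that of the depths at an exact binomial p under 0.05 for 1 number only. Several pairs held few counts, such as 3 in WT replicate 2, so the test could hardly find a difference there. Within title series 1 the KO libraries averaged 1.22 CPM of the raw total against 0.264 in WT, and within series 2 they averaged 1.39 against 0.0833. Within series 1 the lowest KO library, at 0.350, was under the highest WT library, at 0.442, and within series 2 the genotypes did not overlap, with a lowest KO value of 0.579 and a highest WT value of 0.158.

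Lcn2 had more counts than any other member, 897 in all, and its KO columns were spread widely. The WT columns held 17, 28, 30, 50 and 28 counts, or 0.825, 0.811, 0.948, 1.82 and 1.41 CPM. The HET columns held 34, 32, 75, 17 and 26 counts, or 1.11, 1.19, 2.76, 1.11 and 1.24 CPM. The KO columns held 148, 54, 94, 234 and 30 counts, or 4.45, 1.99, 4.001, 12.03 and 1.43 CPM. In KO, 4 columns were above every WT column and 3 were above every HET column, while KO replicate 5 lay inside the WT range and HET replicate 3 lay above KO replicates 2 and 5.

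The mean Lcn2 level was 1.16 ± 0.440 CPM in WT, 1.48 ± 0.717 in HET and 4.78 ± 4.25 in KO. The KO mean was thus 4.11 times WT, and 2.55 times WT without KO replicate 4, which held 26.1% of all Lcn2 counts and 41.8% of those in KO. Within title series 1, which does not contain that column, the KO and WT means were 3.27 and 1.18 CPM, and in series 2 they were 4.71 and 1.11.

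**Figure D1:**
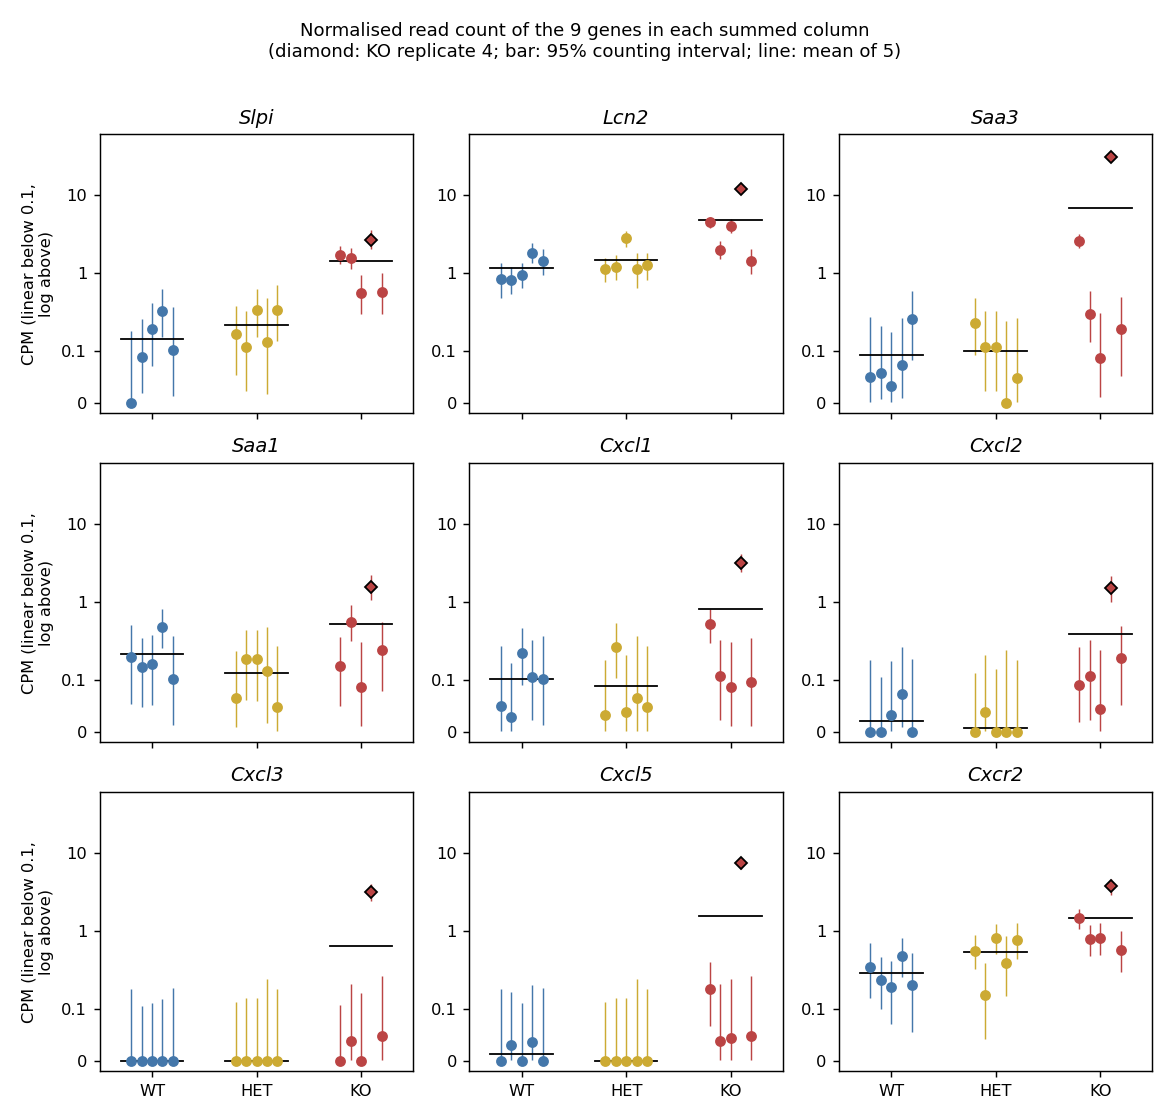
Normalised read count (CPM, linear below 0.1 and logarithmic above) of each gene in the 5 WT, 5 HET and 5 KO columns, with 95% counting intervals and the mean as a line. Slpi is higher in all 5 KO columns, from 0.553 to 2.67 CPM, whereas for Saa3, Cxcl1, Cxcl2, Cxcl3 and Cxcl5 KO replicate 4 (diamond) stands far above the other columns.

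The 2 acute phase genes followed KO replicate 4, and Saa3 followed it most. Saa3 counts were 1, 2, 1, 2 and 5 in WT, 7, 3, 3, 0 and 1 in HET, and 86, 8, 2, 595 and 4 in KO. In CPM the WT columns ran from 0.0316 to 0.252, the HET columns from 0 to 0.228, and the KO columns were at 2.59, 0.295, 0.0851, 30.6 and 0.190. KO replicates 1, 2 and 4 lay above every WT and HET column, KO replicates 3 and 5 lay within the WT range, and the single library of replicate 4 held 82.6% of all Saa3 counts in the table. KO replicate 1 was the next highest, and both of its libraries were high, at 42 and 44 counts.

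The KO mean of Saa3, 6.75 ± 13.4 CPM, was 72.9 times the WT mean of 0.0925 ± 0.0903, and the ratio fell to 8.53 without KO replicate 4. The 4 remaining KO columns averaged 0.789 ± 1.20 CPM, a level that still rested on 1 column, replicate 1. The HET mean was 0.0995 ± 0.0856 CPM and lay within the WT spread. Within title series 1 the KO and WT means were 0.879 and 0.0458 CPM, and within series 2 they were 6.37 and 0.119.

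Saa1 had the smallest KO to WT ratio of the 9 genes. Its counts were 4, 5, 5, 13 and 2 in WT, 2, 5, 5, 2 and 1 in HET, and 5, 15, 2, 30 and 5 in KO, and 31.5% of the 50-base windows of its transcripts also occur in Saa2 or Saa3, so its reads can be shared with them. KO replicates 2 and 4, at 0.553 and 1.54 CPM, lay above every WT column, and KO replicates 1, 3 and 5 overlapped WT. The mean was 0.214 ± 0.149 CPM in WT, 0.123 ± 0.0647 in HET and 0.514 ± 0.602 in KO, and without KO replicate 4 the KO mean was 1.20 times WT. Saa1 is best known from liver, so liver markers are given beside it. Albumin and 7 other hepatocyte genes summed to 5.55 CPM in KO replicate 4, against 1.71 to 212 in the other columns, and HET replicate 1, at 212, had 2 Saa1 counts. The part of liver RNA in the Saa1 level was not tested.

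The 4 chemokines among the members had few or no counts in WT and HET skin and most of their counts in 1 KO column. Cxcl1 had 1, 1, 7, 3 and 2 counts in WT, 1, 7, 1, 1 and 1 in HET, and 17, 3, 2, 62 and 2 in KO. KO replicate 4 was at 3.19 CPM and KO replicate 1 at 0.511, both above every WT and HET column, while the other 3 KO columns, from 0.0851 to 0.111, lay within the WT range of 0.0290 to 0.221. The KO mean was 7.84 times WT with all columns, 0.798 ± 1.35 against 0.102 ± 0.0750 CPM, and 1.97 times WT without replicate 4.

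Cxcl2 had 0, 0, 1, 2 and 0 counts in WT, 0, 1, 0, 0 and 0 in HET, and 3, 3, 1, 29 and 4 in KO. All 5 KO columns were above every HET column and 4 were above every WT column, the exception being KO replicate 3. Over the genes tested, 0.954% were higher in every KO than in every HET column. Cxcl2 was not among the genes tested, and nothing is read from its order. At so few WT counts a ratio is loose: the pooled KO to WT ratio was 14.4, with a 95% counting interval of 4.58 to 72.7, and 4.69 (1.24 to 26.2) without KO replicate 4. These intervals cover counting error only and not the spread between columns.

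Cxcl3 had no count in any WT or HET column, where 3 counts over the 5 columns would be 0.0224 CPM in WT and 0.0248 in HET. In KO it had 0, 1, 0, 61 and 1 counts, so 96.8% of its counts came from replicate 4, at 3.14 CPM. Pooled over the 5 KO columns it was at least 22.7-fold higher than WT, and the 2 counts left without replicate 4 allow no such statement.

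Cxcl5 had 0, 1, 0, 1 and 0 counts in WT, none in HET and 6, 1, 1, 143 and 1 in KO. KO replicate 4 was at 7.35 CPM and held 92.9% of the counts. On the TMM scale all 5 KO columns were above every WT and HET column, although 3 of them rested on a single count. Scaled by total count, KO replicate 2 was at 0.0349 CPM and so under WT replicate 4, at 0.0360. Over the genes tested, 1.61% were higher in every KO than in every WT column and 0.954% than in every HET column. Cxcl5 was not among the genes tested, and nothing is read from its order. The pooled KO to WT ratio was 82.0 (22.3 to 683) with replicate 4 and 5.75 (1.19 to 54.7) without it.

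**Figure D2:**
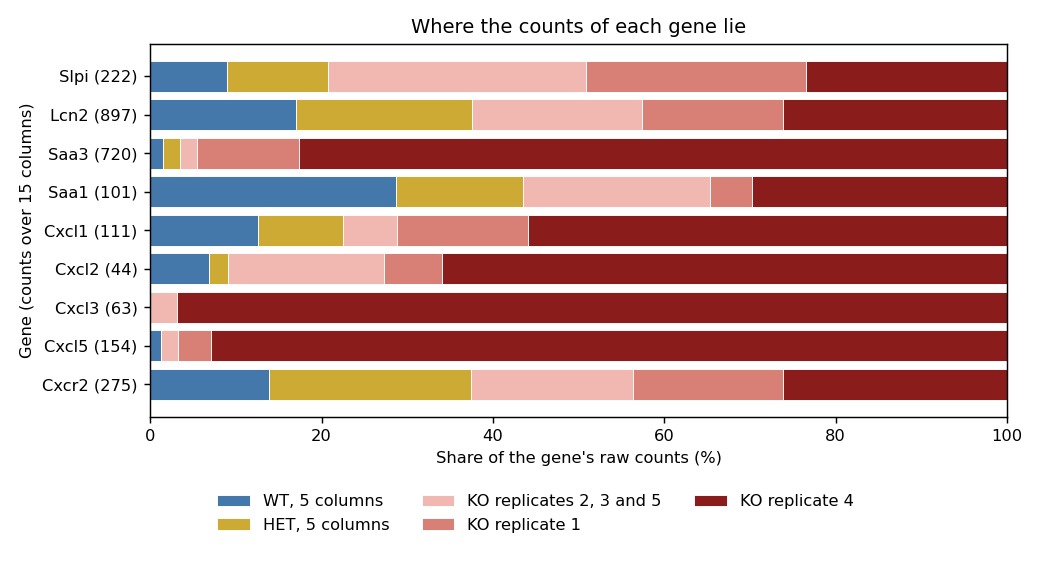
Share (%) of each gene's raw counts that lies in WT, in HET, in KO replicate 1, in KO replicate 4 and in the other 3 KO columns, with the total count after each name. KO replicate 4 holds 96.8% of the counts of Cxcl3, 92.9% of Cxcl5 and 82.6% of Saa3, against 23.4% of Slpi, 26.1% of Lcn2 and 26.2% of Cxcr2.

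Cxcr2, the receptor, was higher in all 5 KO columns than in any WT column, and HET columns overlapped both. Over the genes tested, 1.61% were higher in every KO than in every WT column. As Cxcr2 was picked for its level in KO, nothing is read from this. Its counts were 7, 8, 6, 13 and 4 in WT, 17, 4, 22, 6 and 16 in HET, and 48, 21, 19, 72 and 12 in KO. In CPM the WT columns were at 0.340, 0.232, 0.190, 0.473 and 0.201, the HET columns at 0.553, 0.149, 0.809, 0.390 and 0.766, and the KO columns at 1.44, 0.775, 0.809, 3.70 and 0.571. In HET, 3 columns were above every WT column, and only KO replicates 1 and 4 were above every HET column. HET replicate 2, at 0.149 CPM, was below every WT column, and HET overlapped WT and KO.

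The Cxcr2 mean was 0.287 ± 0.120 CPM in WT, 0.534 ± 0.273 in HET and 1.46 ± 1.30 in KO, which made KO 5.08 times WT, or 3.13 times without KO replicate 4. Within title series 1 the KO and WT means were 0.903 and 0.342 CPM, and within series 2 they were 1.49 and 0.241. In bulk skin, more cells that carry a transcript and more transcript per cell cannot be told apart, for Cxcr2 as for every gene here.

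Levels of different genes were set side by side only per length of exon. In WT the order was led by Lcn2 at 0.443 CPM per kb, then Slpi at 0.120, Cxcr2 at 0.0942, Saa1 at 0.0864, Cxcl1 at 0.0543 and Saa3 at 0.0355, with the other 3 chemokines at 0.0101 or less. In KO replicate 4 the order was different: Saa3 led at 11.7 CPM per kb, followed by Lcn2 at 4.59, Cxcl5 at 3.95, Slpi at 2.27 and Cxcl1 at 1.70. In the other 4 KO columns Lcn2 and Slpi led again, at 1.13 and 0.929 CPM per kb, and Saa3 and Cxcr2 followed at 0.303 and 0.295. The gene models behind these lengths are those of GENCODE vM21, which may differ from those the authors counted on.

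**Figure D3:**
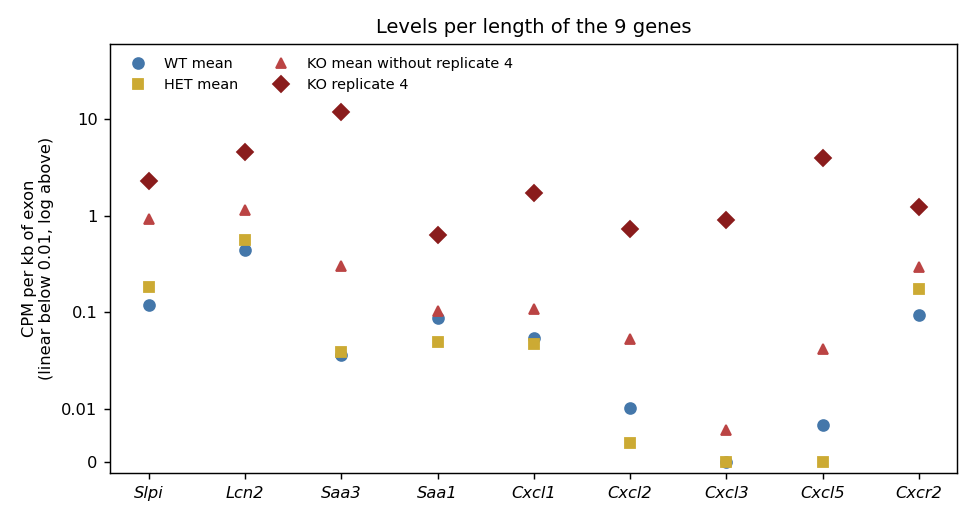
Level per length (CPM per kb of exon, linear below 0.01 and logarithmic above) of the 9 genes as the mean of 5 WT columns, 5 HET columns and 4 KO columns, and in KO replicate 4. Saa3 is the lowest but 3 in WT, at 0.0355, and the highest of all in KO replicate 4, at 11.7.

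Across the table, 3 of the 9 members, Slpi, Lcn2 and Cxcr2, had enough counts to enter the fit of 17094 genes, and Saa3, Saa1 and the 4 chemokines did not. A gene was called at a Benjamini-Hochberg adjusted p of 0.1 or below in edgeR's quasi-likelihood test and a log2 fold change of 1 or more in size. By this rule 23 genes (0.135%) were called higher and 32 (0.187%) lower in KO than in WT, and all 3 members were among the higher ones. Since their level in KO was what chose them, the count is not evidence about them. The fitted KO to WT log2 fold change was 3.22 (SE 0.55, adjusted p = 0.0231) for Slpi, 2.03 (SE 0.50, adjusted p = 0.0978) for Lcn2 and 2.31 (SE 0.54, adjusted p = 0.0891) for Cxcr2. The last 2 lie just inside the limit.

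Each of these calls depended on the columns used. Without KO replicate 4 the log2 fold change of Slpi was 2.89 with an adjusted p of 0.0537, while those of Lcn2 and Cxcr2 were 1.37 and 1.67 with adjusted p of 0.206 and 0.180. Without WT replicate 2 the adjusted p was 0.0968 for Slpi, 0.219 for Lcn2 and 0.215 for Cxcr2. With both left out, Slpi kept a log2 fold change of 2.71 (SE 0.57) but its adjusted p was 0.186, and only 2 genes were called higher in the whole table. Lcn2 and Cxcr2 also lost their call when any one of WT replicates 1, 3 and 5, HET replicates 1, 3 and 5, or KO replicate 1 was left out, and Lcn2 when HET replicate 2 was.

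**Figure D4:**
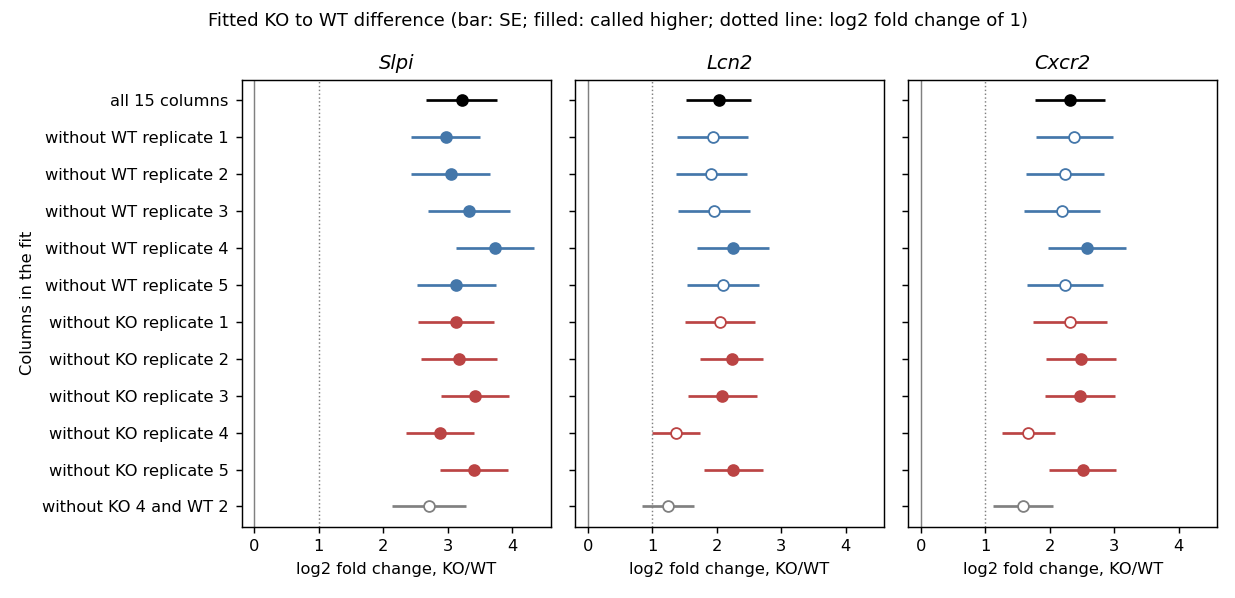
Fitted log2 fold change of KO over WT with its SE for Slpi, Lcn2 and Cxcr2, with all 15 columns and with WT or KO columns left out, filled where the gene was called. The fold change of Slpi stays between 2.71 and 3.73 in these fits, and those of Lcn2 and Cxcr2 fall to 1.37 and 1.67 without KO replicate 4.

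KO skin was also set against HET skin. There 14 genes (0.0819%) were called higher, 1 of them Slpi, whose fitted difference was 2.69 on the log2 scale (SE 0.53, edgeR's adjusted p = 0.0733). Lcn2 and Cxcr2 had log2 differences of 1.66 and 1.42 with adjusted p of 0.166 and 0.203, and of 0.997 and 0.77 without KO replicate 4. By DESeq2 the adjusted p of Lcn2 was 0.0262, which made it a call. Without KO replicate 4 the adjusted p of Slpi was 0.143, at a log2 fold change of 2.36. Between HET and WT edgeR called 0 genes (0.0%), with 270 (1.58%) at an unadjusted p under 0.05, and DESeq2 also called 0. The fitted HET to WT log2 differences were 0.53 (SE 0.68) for Slpi, 0.37 (SE 0.52) for Lcn2 and 0.90 (SE 0.58) for Cxcr2, the last the largest although no call was made.

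The other genes of the same pathways were taken from 4 lists. Over all 17094 genes the median KO to WT log2 fold change was -0.01. Of 29 further antimicrobial and acute phase genes, 19 could be tested, 12 with a positive and 7 with a negative difference and a median of 0.22. EdgeR called a single gene: Pglyrp3, a peptidoglycan recognition protein of the skin, rose from 5.51 ± 1.86 to 11.9 ± 2.46 CPM, by 1.11 on the log2 scale (SE 0.24, adjusted p = 0.0648, edgeR). Its call was lost without any one of WT replicates 1, 2 and 3 and KO replicates 1 and 4, at log2 fold changes of 0.96 to 1.14. Without KO replicate 4 its adjusted p was 0.172. The neutrophil and keratinocyte calcium-binding proteins S100a8 and S100a9 had log2 differences of 1.71 and 1.73, with adjusted p of 0.102 and 0.109, and the complement protein C3 had 2.46 with 0.129. These differences were 1.18, 1.17 and 2.02 without KO replicate 4. DESeq2 called 6 of the 19, namely Pglyrp3, S100a8 (adjusted p = 0.0166), S100a9 (0.0209), C3 (0.0242), Serpina3n (0.0884) and Hp, and edgeR in title series 2 alone also called S100a8 (0.091) and S100a9 (0.0908). Serpina3n, an acute phase protease inhibitor, was at 86.4 CPM in KO replicate 4, which held 51.9% of its counts. Its log2 difference was 2.33 with that column and 0.15 without it.

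Slpi carries WAP domains, and 4 other WAP domain genes of 13 could be tested. None was called by edgeR (2 positive, 2 negative, 2 at an unadjusted p under 0.05, median -0.20, smallest adjusted p = 0.114), and DESeq2 called Wfdc21 lower (adjusted p = 0.0138). Wfdc21 was at 53.1 ± 25.6 CPM in WT and 22.6 ± 9.91 in KO, a log2 difference of -1.23 and so opposite in sign to Slpi, and it was -1.24 without KO replicate 4. Wfdc5, Wfdc2 and Wfdc1 differed by 0.45, -0.46 and 0.07.

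Of 34 further chemokines and chemoattractant receptors, 23 could be tested and edgeR called none, with 8 at an unadjusted p under 0.05, 14 positive and 9 negative differences and a median of 0.16. There were 10 positive and 13 negative differences without KO replicate 4, with a median of -0.04. Only Cxcl16, at a log2 difference of 0.84, had an adjusted p below the limit (0.0797). Ppbp, whose product is the platelet chemokine that also binds Cxcr2, had the highest ratio of KO replicate 4 to the next column among genes with 40 or more counts: 4822 of its 5121 counts were in KO replicate 4, at 248 CPM against at most 3.12 elsewhere. Its log2 difference was 5.37 (adjusted p = 0.150) with that column and -0.71 without it. Ccl20, which draws Ccr6-bearing cells and is an IL-17 target, differed by 2.54 (SE 0.83, adjusted p = 0.140) and by 1.96 without KO replicate 4. Ccl2 and Fpr2 differed by 1.10 and 1.03 with adjusted p of 0.237 and 0.195, and by 0.28 and 0.85 without KO replicate 4. DESeq2 called 1 of the 23, Ccl20 (adjusted p = 0.0701). Cxcr1, the other receptor of this family, had 1 count in all.

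Among 28 genes of the IL-17 and NF-kappaB response, 23 could be tested and edgeR called none, with 8 at an unadjusted p under 0.05, 17 positive and 6 negative differences, a median of 0.20 and a smallest adjusted p of 0.102. Il17a had no count in any column and Il17c had 8 in all. Il1b and Il1a, the ligands of the interleukin 1 receptor, differed in opposite senses, by 1.46 (adjusted p = 0.175) and -2.06 (adjusted p = 0.113), and by 0.77 and -2.16 without KO replicate 4. Ptgs2, the inducible prostaglandin synthase, differed by 0.97 with KO replicate 4 and by -0.39 without it, and Tnf differed by -0.80. By DESeq2, 1 of the 23 was called higher (Il1b, adjusted p = 0.0886) and 1 lower (Il1a, adjusted p = 0.0304).

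Cell type markers were summed to see what moved with the members. Skin markers were as labelled: the 8 keratinocyte genes summed to 69870 ± 8800 CPM in WT and 82930 ± 13710 in KO, and the 6 fibroblast genes to 27570 ± 5331 and 23110 ± 5421. The 7 adipocyte genes summed to 599 ± 300 CPM in WT, 1380 ± 1443 in HET and 1773 ± 2021 in KO, or 898 ± 588 in KO without replicate 4. All 7 had a positive KO to WT difference, with a median of 1.78 (1.15 without KO replicate 4) and a smallest adjusted p of 0.183, so edgeR called none, while 4 had an unadjusted p under 0.05 and DESeq2 called 3. HET replicate 3, the highest HET column for Lcn2, had an adipocyte sum of 3929 CPM. The 8 hepatocyte genes summed to 20.8 ± 14.2 CPM in WT, 79.6 ± 84.6 in HET and 8.16 ± 9.42 in KO, and all 7 that could be tested had a negative KO to WT difference (median -1.35). In that comparison edgeR and DESeq2 called none of them, and none had an unadjusted p under 0.05. Against HET, all 7 were lower in KO (median -3.375) at an unadjusted p under 0.05, and edgeR called none. In HET against WT all 7 were positive (median 1.93), 4 of them at an unadjusted p under 0.05 (edgeR), with none called. The part of these cell types in the members' levels was not tested. Of 12 neutrophil markers that share no gene with the members, 11 were in the table and 9 could be tested. All 9 had a positive KO to WT difference (background 48.6% of genes) and edgeR called none, with 3 at an unadjusted p under 0.05, a median of 0.84 and a smallest adjusted p of 0.122. The median was 0.60 without KO replicate 4. All 9 were also positive in HET against WT, with a median of 0.40 and none called. Between KO and HET, 7 were positive and 2 negative, with a median of 0.47 and none at an unadjusted p under 0.05 (edgeR). The sum of the 11 was 10.5 ± 1.47 CPM in WT (8.85 to 11.7), 14.0 ± 2.90 in HET (11.01 to 18.8) and 17.6 ± 5.40 in KO (12.3 to 23.8). The HET columns thus overlapped both WT and KO.

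The neutrophil sum, on the TMM scale, was higher in every KO column than in any WT column, by 0.65 on the log2 scale (two-sided exact permutation test, p = 0.00794, the smallest possible). Cxcr2, a neutrophil gene, was chosen for its level in these same columns, and the marker list was chosen with earlier results known. The p-values of this sum are therefore not independent of the choice of members, and nothing is read from them. Scaled by total count, 4 of 5 KO columns were above every WT column, with a lowest KO value of 11.74 and a highest WT value of 11.91 CPM, and the log2 difference was 0.60 (exact p = 0.0159). On the TMM scale the neutrophil sum was higher by 0.57 without KO replicate 4 and WT replicate 2 (exact p = 0.0286). Within the title series, on CPM of the raw total, it was higher by 0.60 in series 1 (exact p = 0.10, the smallest that 3 against 3 allows). In series 2 it was higher by 0.59 (exact p = 0.0556). Cathepsin G (Ctsg), its most abundant gene in WT, which mast cells also express, was at 3.73 CPM in WT and 3.86 in KO. Ly6g, the usual surface marker, had 21 counts in all, with means of 0.0402 CPM in WT, 0.0820 in HET and 0.0429 in KO. Mmp8 and Stfa2l1 went from 1.38 to 3.19 and from 0.525 to 1.55 CPM, with adjusted p of 0.204 and 0.122 in edgeR, and both were called by DESeq2. Their KO means were 2.08 and 1.07 CPM without KO replicate 4. Mpo went from 0.309 to 0.860 CPM, a log2 difference of 1.53 (adjusted p = 0.276, edgeR), with a KO median of 0.332. The part of neutrophils in the level of the members was not tested.

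In KO replicate 4 other marker lists moved too. A list of 11 mesothelium genes, put together after the counts were seen, summed to 552 CPM there and to 15.4 to 40.7 in the other 14 columns. Most of the 552 came from keratins that are not particular to mesothelium: Krt7 at 95.1, Krt8 at 105.7, Krt18 at 93.5 and Krt19 at 120.1 CPM. Of the 11 genes, 9 were highest in that column and none was at 0, among them Msln, Upk3b at 22.7 CPM and Wt1 at 5.91, while Lrrn4 was at 0.360 and Nkain4 at 1.64, under its WT mean. The 7 adipocyte genes summed to 5270 CPM in KO replicate 4 and 327 to 3929 elsewhere. The oral epithelium list summed to 27.1 there and 2.29 to 6.43 elsewhere, but nearly all of this was Krt13, at 25.6. Its other genes did not rise: Krt4 was at 1.44 and Krt76 at 0.0514 CPM, under their WT means of 2.79 and 0.536. The salivary gene Bpifa2 had no count in any of the 15 columns. Fibroblast and mast cell genes were at their lowest there, 14690 and 745 CPM. Macrophage genes, at 363 CPM, were within the range of the other columns, 250.1 to 454. The part of these tissues in the Saa3 and chemokine levels of that column was not tested.

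KO replicate 1 had the second highest level of Lcn2, Saa3, Cxcl1, Cxcl5, Cxcr2 and Slpi, but not of the other 3 members. Its Saa1 level, 0.150 CPM, was under the WT mean of 0.214. Its Cxcl2 level, 0.0902 CPM, was under those of KO replicates 2 and 5, and it had no Cxcl3 count. Its mesothelium sum, 15.4 CPM, was the lowest of all 15 columns, and its adipocyte sum, 495 CPM, lay within the WT range. Its neutrophil sum was 17.1 CPM. Among WT columns, replicate 5 had the highest mesothelium sum, 40.7 CPM, and the highest Saa3 level, 0.252 CPM, which rested on 5 counts. What part these tissues and cells have in the members' levels of either column was not tested.

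**Figure D5:**
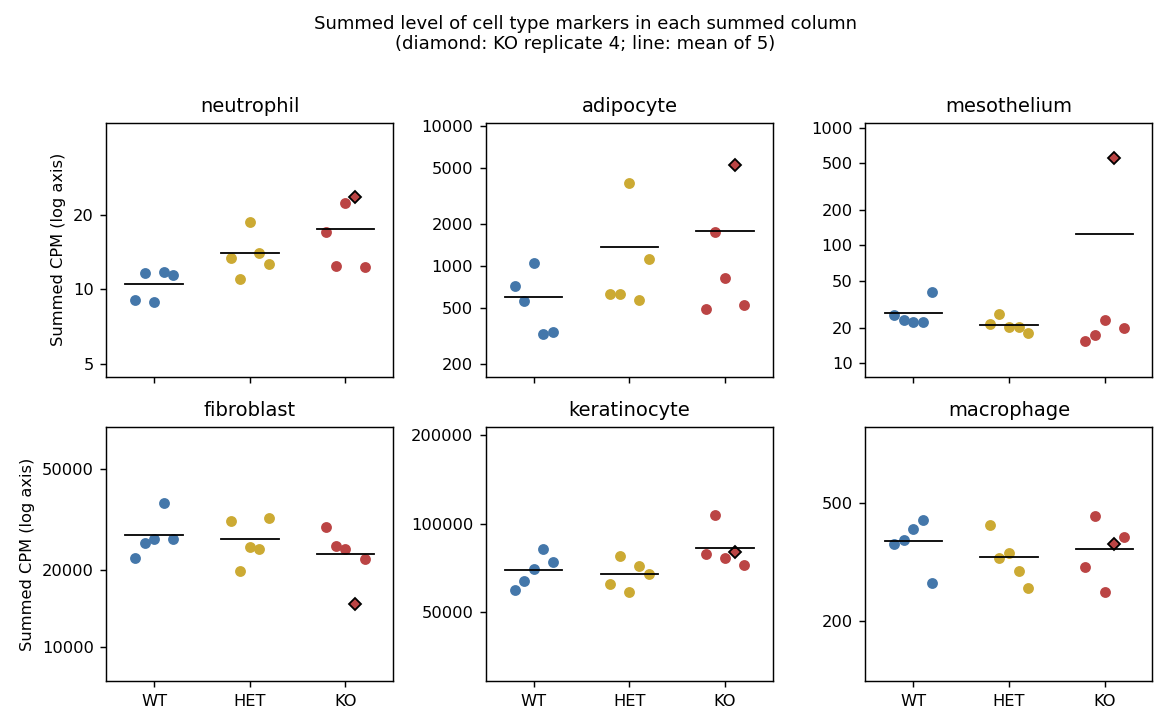
Summed level (CPM, log axis) of marker genes of 6 cell types in each of the 15 columns, with the mean of each genotype as a line. The mesothelium sum is 552 CPM in KO replicate 4 (diamond), most of it from Krt7, Krt8, Krt18 and Krt19, and 15.4 to 40.7 in the others. The neutrophil sum is above the WT range, 8.85 to 11.7, in all 5 KO columns, and the HET columns, at 11.01 to 18.8, overlap WT and KO.

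The members moved together only in part. Over the 15 columns, Slpi and Lcn2 had a Spearman rank correlation of 0.84, Slpi and Cxcr2 0.84, and Lcn2 and Cxcr2 0.82. Without KO replicate 4 these were 0.81, 0.80 and 0.78. Saa1 and Cxcl1 stood apart from the receptor, at 0.15 and 0.11. These values are a description across columns that share genotypes and few counts. The tested genes outside the members with the pattern most like Slpi were Gpatch2 (0.94), S100a8 (0.92) and RP23-324J22.6 (0.89), and most like Lcn2 were Atp1b1 (0.93), S100a8 (0.91) and Por (0.89). For Cxcr2 they were S100a9 (0.94), Olfm4 (0.94) and S100a8 (0.93). Neutrophils express each of these, and keratinocytes also express S100a8 and S100a9. Which cells they came from in this skin was not tested. S100a8 appeared in all 3 sets, with means of 4.45 CPM in WT, 7.30 in HET and 14.6 in KO.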

How the data were processed

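The authors deposited a table of raw read counts per gene symbol for 24 libraries of E18.5 dorsal skin. The submitters' processing notes name STAR, HTSeq and the build hg19, a human one, for these mouse libraries, while versions, annotation and strand setting were not given in the sources used here. The directional libraries were made from poly(A) RNA.

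Groups came from the sample labels, and libraries with the same genotype and title number were summed into 15 columns. Counts were scaled by TMM to CPM, filtered with filterByExpr and fitted across all 3 genotypes with edgeR 4.0.16's quasi-likelihood test in R 4.3.3, with Benjamini-Hochberg adjustment over all genes tested and calls at an adjusted p of 0.1 and a log2 fold change of 1. Alternatives were DESeq2 1.42.0, RLE factors, an adjusted p of 0.05, no filter, only the genotypes compared, each title series alone and leaving out columns. The scripts were tested on simulated data. Marker sums were compared by exact permutation of log2(CPM + 1) in scipy 1.17.1. Counting intervals are exact Poisson or binomial at 95%, and a floor is 3 counts, both covering counting error only. Exon lengths came from GENCODE vM21 and promoters from RefSeq on GRCm38.p6.

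The members, gene lists and tests were chosen with earlier results of these data known, and the mesothelium list after the genes of KO replicate 4 were seen. The text names all members, listed genes that were called, up to 4 tested genes with the largest KO to WT difference in each of 4 pathway lists, the 3 genes most like each tested member, and markers at or near 0. Cxcl16, Il17a, Il17c and the other genes singled out in KO replicate 4 or in the marker lists were named after their values were seen.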

Additional observations from a re-analysis of the deposited data

Results flagged for a closer look

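In each genotype, the gap between the most extreme column and its nearest neighbour was divided by the range of the 5 columns. Of 33 such sets, 12 passed the critical value of 0.71, which chance alone passes in about 1 in 20. The genes were chosen with it known that 1 KO column holds most counts of several of them, so the KO values restate that choice and the number of sets is no evidence. In KO, replicate 4 was the column concerned each time, with a value of 0.715 for Lcn2, 0.918 for Saa3, 0.863 for Cxcl1, 0.898 for Cxcl2, 0.985 for Cxcl3, 0.98 for Cxcl5 and 0.722 for Cxcr2. The KO columns of Slpi and Saa1 did not pass. In HET, Lcn2 gave 0.916 for replicate 3, at 2.76 CPM against 1.24 in the next column. Also in HET, replicate 2 gave 0.857 for Cxcl1, at 0.260 against 0.0651 CPM, and 1.0 for Cxcl2, on 1 count. In WT, Saa3 gave 0.813 for replicate 5, at 0.252 against 0.0728 CPM, and Saa1 gave 0.749 for replicate 4, at 0.473 against 0.194 CPM.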

How the results depend on the processing

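Slpi kept its KO to WT call in 19 of 21 alternatives, with log2 fold changes of 2.71 to 3.73, and lost it with only the 2 genotypes in the fit (adjusted p = 0.107, edgeR) and with KO replicate 4 and WT replicate 2 both left out, an alternative chosen after seeing the data. Its KO to HET call was lost in 11 of 21. Slpi had too few counts to be fitted within one title series. Lcn2 lost its KO to WT call in 15 of 23 alternatives (1.25 to 2.26) and Cxcr2 in 13 of 23 (1.40 to 2.67). DESeq2 added calls that edgeR did not make, given beside each list. The causes were not tested. The 6 other members have too few counts for the fit, and with no filter none was called, the smallest adjusted p in edgeR being 0.184, for Saa3.

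Genes called higher in KO than WT numbered 23, but 11 at an adjusted p of 0.05, 99 by DESeq2, 1 in title series 1, 6 with only the 2 genotypes, 2 with both columns left out and 8 to 113 with 1 column left out. The 32 called lower became 14, 91, 2, 9, 4 and 10 to 127. Against HET, the 14 higher became 4, 42, 1, 1, 3 and 4 to 44, and the 17 lower 6, 84, 2, 2, 2 and 5 to 69, or 26 with no filter. HET against WT gave 0 to 1 lower when 1 column was left out. In title series 1 alone, 3 against 3 columns cannot go below an exact p of 0.10, at which stood the log2 differences of the Dsg1 sum (-8.93 for KO, -0.99 for HET) and of the neutrophil sum (0.60). In series 2 the latter was 0.59 (exact p = 0.0556).

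The KO to WT difference changed sign for Serpina3n in series 1 (-0.056), for Wfdc1 in series 1 (-0.020) and without WT replicate 4 (-0.12), for Ppbp without KO replicate 4 (-0.71) and without both columns (-0.89), and for Ptgs2 in series 1 (-0.81), without KO replicate 4 (-0.39) and without both columns (-0.31). With 1 column left out, these differences ran from -0.12 to 0.20 for Wfdc1, -0.71 to 5.97 for Ppbp and -0.39 to 1.26 for Ptgs2. No paired analysis was possible because the genotypes share no title numbers.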

Other observations

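Among genes with 40 or more counts, the transcription factor genes Tbx20, Hand1 and Hand2, known from heart and body wall mesoderm, were 43.4, 34.2 and 22.7 times the next highest column in KO replicate 4. Rhox5 was 27.4 times and the serpin gene Serpina3m 42.1 times the next column. These genes were chosen after their values were seen.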
